A study of Rattus norvegicus with 22 samples.

Results

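Macrophages of the rat kidney were examined in the deposited single-nucleus RNA-Seq (snRNA-Seq) annotation, which gives a library, a treatment, a cell type and a pair of UMAP coordinates for every nucleus. The members are all nuclei that the authors annotated as macrophages, whatever the treatment. They numbered 6329 of 310282 nuclei, or 2.04% (exact 95% binomial CI 1.99% to 2.09%). Proximal tubule (PT) cells, the convoluted (PCT), straight (PST) and injured (iPT) types together, made up 172525 nuclei, and macrophages were 4.59% of the 137757 non-PT nuclei. The 2 other immune types of the annotation were smaller, with 1626 monocytes and 2999 lymphocytes.

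Kidney macrophages lie in the interstitium between tubules and capillaries, where they clear debris, present antigen and release cytokines and growth factors. Resident macrophages are seeded during development and maintain themselves locally, and further cells derive from blood monocytes that enter injured tissue. Their survival depends on the receptor Csf1r and its ligands, and their number is known to be greater in kidneys with hypertensive and tubular injury. The authors named the macrophage cluster from Csf1r and C1qa, a chain of the complement component that opens the classical pathway, the monocytes from Lyz2, an antibacterial lysozyme, and the lymphocytes from Cd96, a receptor of T and natural killer cells. Gene values were not analysed here, so the name could not be checked against Csf1r, C1qa or Cd74, the invariant chain of antigen presentation. The annotation gave no subsets of macrophages.

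The study asked how a mineralocorticoid and drugs that oppose it change the cells of the kidney. All rats were male Sprague-Dawley, and whole kidney was used. Control rats (5 samples, all at 6 weeks) were sham operated and kept both kidneys. The rats of all other groups had lost 1 kidney and were injected once a week with 50 mg/kg of DOCA (deoxycorticosterone acetate), a steroid that activates the mineralocorticoid receptor, with salt in the drinking water, so the removal of a kidney, the salt and the steroid cannot be told apart. DOCA rats (5 samples) received vehicle, finerenone rats (5) a nonsteroidal mineralocorticoid receptor antagonist at 10 mg/kg per day, spironolactone rats (5) a steroidal antagonist at 50 mg/kg per day, and amiloride rats (2, both at 6 weeks) a blocker of the epithelial sodium channel at 20 mg/kg per day. In the DOCA, finerenone and spironolactone groups, 4 samples were labelled 6 weeks and 1 was labelled 3 weeks, which by the study's methods count from the start of treatment. The 2 antagonists were each given at a single dose, and these doses differ.

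The annotation lists 22 libraries, as many in each treatment as there are samples, with 759 to 48403 nuclei each. No library could be tied to a given sample by its name, so the 3-week library of a group is not known and both times are combined. The names of 5 libraries carry an Old tag, those of 6 a New tag and those of the other 11 none. Of the tagged names, 5 end in MO, taken here as the Multiome kit, which reads RNA and open chromatin from 1 nucleus. The study's methods give this kit for 5 samples, and the library names are in no label. What the tags stand for was not given in the sources used here. The sample numbers fall into an earlier and a later series. In each treatment the untagged libraries were as many as the samples of the earlier series. All 3-week samples are in the later series, so the 3-week time may go with a tag. The labels list Cell Ranger 3.0.2 for 11 samples and 6.0.1 for 11, and whether this split follows the tags was not tested. The New libraries were large, with 10172 to 48403 nuclei against 759 to 22151 in the other 16. The names have 16 stems (the name without its tag), of which 5 recur. Within a treatment, the control libraries RK12.2 and RK12.2.Old.MO share a stem, as do the spironolactone libraries RK6.1 and RK6.1.New, and whether either pair came from 1 kidney is not known. The control pair had 0 barcodes in common and the spironolactone pair 102, of 13610 nuclei in RK6.1. Barcodes are assigned separately in each library, so these counts cannot show whether a pair came from 1 kidney. Across treatments, RK2.2, RK7.1 and RK8.2 each occur in a DOCA and a finerenone library, and RK12.2 also in an amiloride library. Of all pairs of libraries, none shared more than 3.12% of the barcodes of its smaller member, and 6.46% of macrophage nuclei carried a barcode found in another library, against 6.37% of all nuclei. Each library is treated below as 1 replicate of its treatment, so the p-values measure the spread between libraries, part of which may be technical.

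Macrophages were a small part of every control library. They made up 0.740% of all nuclei in RK10.3.Old, 1.10% in RK11.3, 1.37% in RK12.2, 1.05% in RK12.2.Old.MO and 2.77% in RK12.3. The last of these stood above the other controls, which lay close together. The shares rested on 140, 73, 17, 155 and 147 macrophages, and the exact 95% intervals, which cover counting error only, ran from 0.802% to 2.19% in RK12.2, the smallest control library, and from 0.622% to 0.872% in RK10.3.Old, the largest.

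In the DOCA group the share was 1.16% in RK2.2.New, 5.75% in RK7.1, 4.05% in RK7.2, 4.08% in RK8.2 and 5.26% in RK9.1.Old.MO. Thus 4 of the 5 DOCA libraries were above every control library, and 1, RK2.2.New, lay inside the control range. The mean was 4.06% ± 1.78 (SD, n = 5) in the DOCA group and 1.41% ± 0.793 (SD, n = 5) in the control group. The difference was 2.66 percentage points (95% permutation interval 0.537 to 4.52) and the ratio of the means 2.89. The exact two-sided permutation test gave p = 0.0238, and p = 0.0762 after Benjamini-Hochberg adjustment over the 16 annotated types. Macrophages were therefore higher at the unadjusted level, and the difference did not pass after adjustment. Unadjusted p-values under 0.05 were found for 31.2% of the 16 types, and none passed after adjustment. With 5 libraries against 5, the smallest p that this test allows is 0.00794, and a type that reached it alone would have an adjusted p of 0.127.

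Over all libraries together the proximal tubule held more nuclei than all other types, but not in every library. The non-PT share of a library ran from 14.3% in RK8.2.New to 71.6% in RK6.1.New, so the macrophages were also counted among non-PT nuclei. A share of nuclei cannot tell more macrophages from fewer nuclei of other types. The control libraries had 1.49% (RK10.3.Old), 2.39% (RK11.3), 2.44% (RK12.2), 2.21% (RK12.2.Old.MO) and 4.48% (RK12.3). The DOCA libraries had 2.36% (RK2.2.New), 14.3% (RK7.1), 10.4% (RK7.2), 8.41% (RK8.2) and 9.27% (RK9.1.Old.MO). Again RK2.2.New was the only DOCA library inside the control range. The means were 8.95% ± 4.32 (SD, n = 5) and 2.60% ± 1.12 (SD, n = 5), a ratio of 3.44. The difference was 6.35 percentage points (95% permutation interval 1.93 to 10.4, exact two-sided p = 0.0317, adjusted p = 0.103 over 13 types, where 30.8% of the types had an unadjusted p under 0.05). By this ratio of means macrophages ranked number 3 of the 13 non-PT types, after proliferating tubule cells and lymphocytes.

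**Figure D1:**
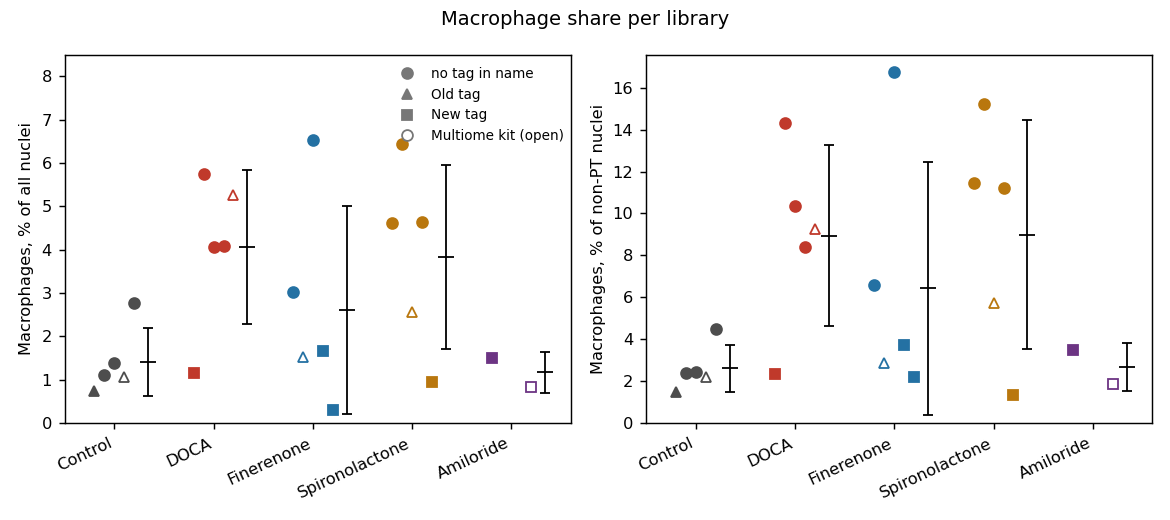
Macrophages as a percentage of all nuclei (left) and of non-PT nuclei (right) in each library, by treatment. Each point is a library, its shape gives the tag in its name, open points are Multiome libraries, and black bars show mean ± SD over libraries. In the left panel the control libraries lie between 0.740% and 2.77%, 4 DOCA libraries between 4.05% and 5.75%, and the square at 1.16% is the DOCA library with a New tag.

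Another denominator was the interstitial compartment, taken as endothelial cells, fibroblasts, myofibroblasts and the immune types. Macrophages were 7.49% of interstitial nuclei in RK10.3.Old, 6.33% in RK11.3, 6.88% in RK12.2, 5.95% in RK12.2.Old.MO and 13.1% in RK12.3. In the DOCA group they were 7.83% in RK2.2.New, 27.6% in RK7.1, 22.2% in RK7.2, 21.7% in RK8.2 and 30.2% in RK9.1.Old.MO. The means were 21.9% ± 8.64 (SD, n = 5) against 7.95% ± 2.94 (SD, n = 5), and here the difference of 13.9 percentage points (95% permutation interval 4.45 to 22.4) passed, with an exact two-sided permutation p of 0.0159 and an adjusted p of 0.0238 over the 6 types. Of the 6 types, 66.7% passed. Besides macrophages these were monocytes and lymphocytes, which were also higher, and endothelial cells, which were lower at 46.1% ± 8.22 (SD, n = 5) against 66.1% ± 5.81 (SD, n = 5). The 6 shares of a library sum to 100%, so these 4 results are not independent. The macrophage difference passed when any 1 of the 10 libraries was left out, between 11.9 percentage points without RK9.1.Old.MO and 17.4 without RK2.2.New (adjusted p 0.0317 to 0.0476 by the exact test). It did not pass without the Multiome libraries (11.4 percentage points, adjusted p = 0.0857 by the exact test). Relative to endothelial cells, there were 9.01 to 21.7 macrophages per 100 endothelial nuclei in the control libraries (median 9.88) and 13.99 to 85.8 in the DOCA libraries (median 53.1). Relative to fibroblasts, the number of macrophages per fibroblast was 0.293 to 0.966 in controls and 0.486 to 2.38 under DOCA.

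The order of the cell types by number moved in the same way. Counted from the most numerous type, macrophages ranked between 9 and 12 of 16 in the control libraries (median 11) and between 6 and 13 in the DOCA libraries (median 8). Among the 13 non-PT types, the median rank was 8 for controls and 5 for DOCA.

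Libraries with and without a tag in their names were then compared separately. Among the untagged libraries, the 3 DOCA libraries had 4.05% to 5.75% macrophages and the 3 control libraries 1.10% to 2.77%, without overlap, as held for 56.2% of the 16 types. The exact test cannot go below p = 0.1 with 3 against 3, which is the value it gave. Among the tagged libraries, the 2 DOCA libraries had 1.16% and 5.26% and the 2 control libraries 0.740% and 1.05%, again without overlap, as held for 37.5% of the types. The differences were 2.88 percentage points without a tag and 2.32 percentage points with one. When the labels were permuted only within tagged and within untagged libraries, an alternative chosen after the data were seen, the exact two-sided p was 0.0167 for the shares of all nuclei, unadjusted. This is the lowest p that its 120 relabelings allow. Both tagged control libraries carry the Old tag and no control library a New tag, so this permutation does not adjust for New against Old. Counting the control libraries RK12.2 and RK12.2.Old.MO as 1, also chosen after the data were seen, gave a difference of 2.61 percentage points with an unadjusted exact p of 0.0476.

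The New tag moved with the macrophage share. The 6 New libraries held 0.310% to 1.66% macrophages, and the DOCA, finerenone and spironolactone groups each had their lowest share in a New library. Across the 8 untagged libraries of rats given DOCA, with or without a drug, the share was 3.02% to 6.52%, above the 1.10% to 2.77% of the 3 untagged control libraries. Across the 9 tagged libraries of rats given DOCA it was 0.310% to 5.26%, which spans the 0.740% and 1.05% of the 2 tagged controls. Old libraries alone ranged from 0.740% to 5.26%. The part of the tag in these shares was not tested, nor was that of the time or software version that may go with it.

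Addition of finerenone to DOCA gave the widest spread. Macrophages made up 3.02% of all nuclei in RK2.1, 1.53% in RK2.2.Old.MO, 6.52% in RK3.1, 1.66% in RK7.1.New and 0.310% in RK8.2.New. RK3.1 had the highest macrophage share of all 22 libraries and RK8.2.New the lowest. In RK8.2.New, 14.3% of nuclei were non-PT, the lowest value of all libraries, and macrophages were 2.17% of those. The mean was 2.61% ± 2.39 (SD, n = 5), and the difference from DOCA was -1.45 percentage points (95% permutation interval -4.09 to 1.85, exact two-sided p = 0.317, adjusted p = 0.635). The interval includes both a decrease larger than the control-to-DOCA difference and an increase, so a change in either direction was not detectable with these libraries. Unadjusted p-values under 0.05 were found for 12.5% of the types in this comparison, and macrophages were not among them.

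Of non-PT nuclei, macrophages made up 6.60% in RK2.1, 2.84% in RK2.2.Old.MO, 16.8% in RK3.1, 3.71% in RK7.1.New and 2.17% in RK8.2.New. The mean was 6.42% ± 6.02 (SD, n = 5), and the difference from DOCA was -2.53 percentage points (95% permutation interval -9.28 to 5.87, exact two-sided p = 0.468, adjusted p = 0.722). The direction rested on which libraries were compared. Among untagged libraries the difference was 0.14 percentage points of all nuclei and 0.651 of non-PT nuclei, whereas among tagged libraries it was -2.05 and -2.91.

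With spironolactone, macrophages were 4.61% of all nuclei in RK4.1, 6.43% in RK4.2, 2.57% in RK5.1.Old.MO, 4.64% in RK6.1 and 0.941% in RK6.1.New. RK4.2 was above all DOCA libraries, RK4.1 and RK6.1 lay among the 4 highest of these, RK5.1.Old.MO lay between them and the lowest, and RK6.1.New was below them all. The mean was 3.84% ± 2.12 (SD, n = 5), which differed from DOCA by -0.224 percentage points (95% permutation interval -3.14 to 2.91, exact two-sided p = 0.865, adjusted p = 0.897). Of non-PT nuclei they made up 11.5%, 15.2%, 5.73%, 11.2% and 1.31% in the same order, with a mean of 8.995% ± 5.47 (SD, n = 5) and a difference from DOCA of 0.0485 percentage points (95% permutation interval -7.96 to 7.54, exact two-sided p = 0.992). The intervals are wide enough to hold a difference as large as that between DOCA and control. The direction was not stable. Counting RK6.1 and RK6.1.New as 1, an alternative chosen after the data were seen, gave 0.0385 percentage points of all nuclei and 0.732 of non-PT nuclei (unadjusted exact p = 0.984 and 0.810), and pooled nuclei gave -1.13 and -2.89. Among untagged libraries the share of all nuclei was 0.599 percentage points higher than with DOCA, and among tagged libraries 1.46 percentage points lower.

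The amiloride libraries held 1.499% (RK11.2.New) and 0.836% (RK12.2.New.MO) macrophages, or 3.47% and 1.86% of non-PT nuclei. The mean was 1.17% ± 0.469 (SD, n = 2), at the level of the control libraries. Compared with DOCA the difference was -2.89 percentage points of all nuclei and -6.28 of non-PT nuclei, both with an exact two-sided p of 0.190. With 2 libraries against 5, the test cannot go below 0.0952. One of the amiloride libraries was above the lowest DOCA library, so the groups overlapped. Both amiloride libraries carry a New tag, so amiloride and the New tag cannot be told apart. The 1 DOCA library with a New tag, at 1.16%, lay between the pair.

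The antagonists were compared with each other at the doses given. The finerenone mean was 1.23 percentage points of all nuclei below the spironolactone mean (95% permutation interval of the difference -4.55 to 2.08, exact two-sided p = 0.405, adjusted p = 0.929), and of non-PT nuclei the difference was -2.58 percentage points (exact two-sided p = 0.484). Without the finerenone library RK3.1 the difference of all nuclei was -2.21, and without the spironolactone library RK4.2 it was -0.582, so single libraries moved it by more than 1.5 times. With pooled nuclei the difference of non-PT nuclei turned to 0.112.

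Ordered by mean share of all nuclei, the groups were DOCA (4.06%), spironolactone (3.84%), finerenone (2.61%), control (1.41%) and amiloride (1.17%). DOCA and spironolactone, and spironolactone and finerenone, did not differ beyond their spread. Finerenone and control, and control and amiloride, overlapped and were not tested. The pooled share, which follows the largest libraries, gave 3.70% for DOCA, 2.56% for spironolactone, 1.55% for finerenone, 1.18% for amiloride and 1.14% for control. Under this weighting spironolactone lay farther below DOCA, and amiloride and control changed places.

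**Figure D2:**
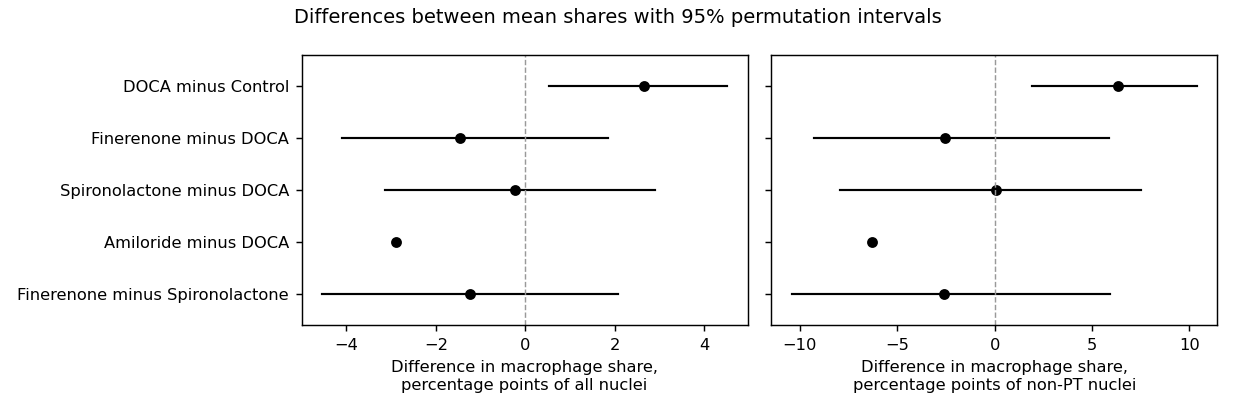
Differences between group means in the macrophage share, in percentage points of all nuclei (left) and of non-PT nuclei (right). Points are differences and lines are 95% intervals from inverting the exact permutation test, with none for amiloride because 2 libraries are too few. The DOCA minus Control intervals lie above 0, at 0.537 to 4.52 on the left, and the intervals of the finerenone and spironolactone comparisons cross it.

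Macrophages were next set against the other immune types of the same library, a ratio that does not depend on how many tubule nuclei a library holds. In the control group there were 2.80 macrophages per monocyte in RK10.3.Old, 4.06 in RK11.3, 2.83 in RK12.2, 2.58 in RK12.2.Old.MO and 6.39 in RK12.3. In the DOCA group there were 2.42 in RK2.2.New, 9.27 in RK7.1, 5.19 in RK7.2, 8.27 in RK8.2 and 4.11 in RK9.1.Old.MO. The groups overlapped. The difference of the mean log2 ratios was 0.59 (95% permutation interval -0.41 to 1.67), a 1.51-fold higher ratio under DOCA, which did not pass (exact two-sided p = 0.198, adjusted p = 0.496 over 10 ratio tests).

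Under finerenone the ratio of macrophages to monocytes was 6.83 in RK2.1, 3.27 in RK2.2.Old.MO, 6.20 in RK3.1, 2.33 in RK7.1.New and 2.38 in RK8.2.New. Under spironolactone it was 5.83 in RK4.1, 4.79 in RK4.2, 5.47 in RK5.1.Old.MO, 6.31 in RK6.1 and 2.09 in RK6.1.New, and under amiloride 2.49 and 2.43. The 6 New libraries formed a narrow band from 2.09 to 2.49 macrophages per monocyte across 4 treatments, and the other 16 libraries, from 2.58 to 9.27, all lay above it. Among the New libraries the DOCA library at 2.42 lay inside the range of the drug libraries. The sizes of New and Old libraries overlapped. The 3 smallest New libraries, with 10172 (RK12.2.New.MO), 11144 (RK11.2.New) and 13307 nuclei (RK2.2.New), had 2.43, 2.49 and 2.42 macrophages per monocyte. Of the Old libraries, RK2.2.Old.MO (13679 nuclei) had 3.27, RK12.2.Old.MO (14747) 2.58 and RK10.3.Old (18931) 2.80. RK9.1.Old.MO (15167) had 4.11 and RK5.1.Old.MO (22151) 5.47. The parts of the tag and of library size in this ratio were not tested.

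The ratio of macrophages to lymphocytes behaved differently. In the control group it was 2.19 in RK10.3.Old, 3.84 in RK11.3, 5.67 in RK12.2, 1.67 in RK12.2.Old.MO and 4.45 in RK12.3, and the value of RK12.2 rests on 17 macrophages and 3 lymphocytes. In the DOCA group it was 1.82 in RK2.2.New, 4.43 in RK7.1, 1.81 in RK7.2, 2.44 in RK8.2 and 2.49 in RK9.1.Old.MO. The 3 untagged control libraries had 3.84 to 5.67 and the 2 tagged ones 1.67 and 2.19. The difference of the mean log2 ratios between DOCA and control was -0.36 (95% permutation interval -1.26 to 0.57, exact two-sided p = 0.389, adjusted p = 0.648).

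All 5 spironolactone libraries had nearly the same ratio of macrophages to lymphocytes, 1.94 in RK4.1, 1.91 in RK4.2, 1.88 in RK5.1.Old.MO, 1.95 in RK6.1 and 1.91 in RK6.1.New. In these libraries the number of macrophages went from 35 to 631 and their share of non-PT nuclei from 1.31% to 15.2%, so macrophages and lymphocytes were scarce or plentiful together. Counting error alone allows 1.07 to 3.65 in RK4.1, which holds 35 macrophages and 18 lymphocytes, and 1.71 to 2.24 in RK6.1, so the 5 values lie closer together than the depth of single libraries can resolve. The finerenone libraries ranged from 1.83 to 2.87 and the amiloride libraries were at 1.92 and 2.93. Compared with DOCA, the mean log2 ratio under spironolactone was 0.35 lower (difference -0.35, 95% permutation interval -0.80 to 0.09, exact two-sided p = 0.167, adjusted p = 0.496). Without the DOCA library RK7.1, which had the highest ratio of its group, the difference was -0.14. In the 10 ratio tests the lowest adjusted p was 0.496.

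**Figure D3:**
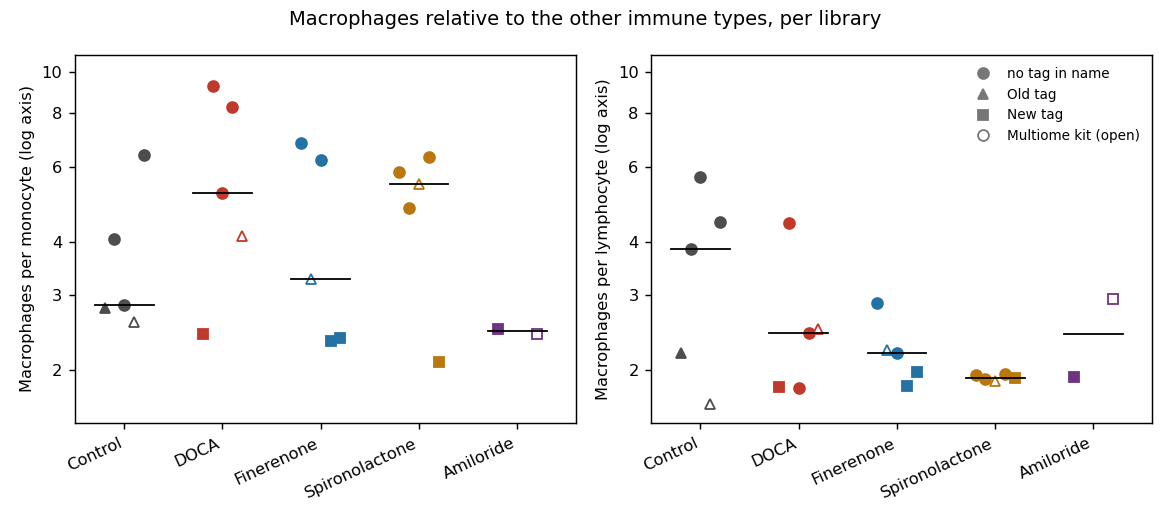
Macrophages per monocyte (left) and per lymphocyte (right) in each library, on log axes, by treatment. Points are libraries with shapes for the name tag and open points for Multiome libraries, and black lines are group medians. The squares, libraries with a New tag, lie between 2.09 and 2.49 macrophages per monocyte in every treatment that has one, and the 5 spironolactone points on the right lie between 1.88 and 1.95.

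Macrophages remained the largest immune type, with 49.9% to 75% of the immune nuclei of a library. The mean was 61.9% ± 8.98 (SD, n = 5) in the control group and 61.9% ± 9.01 (SD, n = 5) in the DOCA group, so the group means lay far within the spread between libraries. It was 57.6% ± 6.81 (SD, n = 5) with finerenone, 57.0% ± 4.06 (SD, n = 5) with spironolactone and 54.5% ± 3.55 (SD, n = 2) with amiloride. These shares were not tested.

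Across the 22 libraries, the macrophage share of non-PT nuclei was set against 4 other measures, with p-values from 100000 permutations, two-sided and adjusted over the 4 relations. Lymphocytes followed it most closely. Their share among the remaining non-PT nuclei gave a Pearson r of 0.93 and a Spearman rho of 0.88, each with a permutation p of 1e-05, the smallest that this number of permutations can give, and an adjusted p of 2e-05. Without the 2 libraries farthest from the median r was 0.89, within the 11 untagged libraries 0.90 and within the 11 tagged libraries 0.98. When each treatment's mean was removed from both measures, r remained 0.92 (permutation p = 0.00018, unadjusted).

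For monocytes r was 0.88 and rho 0.87, with the same smallest p-values. Without the 2 farthest libraries r was 0.81, and within untagged and tagged libraries it was 0.89 in each. After removal of the treatment means it was 0.85 (permutation p = 0.00064, unadjusted). Macrophages, monocytes and lymphocytes thus varied together among libraries of the same treatment as well as between treatments. All of these shares come from the same libraries and the same denominator apart from the macrophages, so they share the yield of a library.

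The iPT cells are proximal tubule cells that the authors named from the injury markers Havcr1 and Vcam1 and from Pdgfb. Their share among PT nuclei shares no nuclei with the macrophage measure. The relation had r = 0.58 (permutation p = 0.00461, adjusted p = 0.00615) and rho = 0.73 (permutation p = 0.00021, adjusted p = 0.00028). Libraries with few iPT cells, such as RK8.2.New with 1.72% of PT nuclei and 2.17% macrophages, had few macrophages. The DOCA library RK9.1.Old.MO had the most iPT cells, 26.4%, with 9.27% macrophages, and RK7.1 had 10.9% iPT cells with 14.3% macrophages, so the order was not strict. Without RK9.1.Old.MO and RK8.2.New, the farthest from the median, r was 0.62 (permutation p = 0.00366). The relation was weaker in rank within libraries with and without a tag. Among untagged libraries r was 0.55 (permutation p = 0.0775) and rho 0.57 (permutation p = 0.0696), and among tagged libraries r was 0.76 (permutation p = 0.0249) and rho 0.45 (permutation p = 0.175). After removal of the treatment means r was 0.46 (permutation p = 0.0755), so within treatments the relation did not pass at this number of libraries.

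Fibroblasts and myofibroblasts, the matrix-producing cells of the interstitium, gave no relation that passed. Their joint share among the remaining non-PT nuclei gave r = -0.0033 (permutation p = 0.988, adjusted p = 0.988) and rho = 0.15 (permutation p = 0.499, adjusted p = 0.499). Within untagged libraries r was -0.30 and within tagged libraries 0.034. Without RK10.3.Old and RK7.1.New, the farthest from the median, it was -0.045. The share counts nuclei and says nothing of the matrix they deposit.

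Measures of the libraries themselves also moved with the macrophage share of non-PT nuclei. These 2 relations were added after the data were seen, and their p-values are adjusted over all 6. Larger libraries had lower macrophage shares, with r = -0.42 (permutation p = 0.0476, adjusted p = 0.0714) and rho = -0.50 (permutation p = 0.0192, adjusted p = 0.023) for the number of nuclei. Without RK7.1.New and RK8.2.New, the farthest from the median, r was -0.40 (permutation p = 0.0753). After removal of the treatment means r was -0.66 (permutation p = 0.00733, unadjusted), but within untagged libraries it was 0.21 and within tagged libraries -0.15, so the relation did not hold within either. For the non-PT share of all nuclei, r was -0.28 (permutation p = 0.213, adjusted p = 0.255) and rho -0.50 (permutation p = 0.0177, adjusted p = 0.023). Without RK8.2.New and RK6.1.New, the farthest from the median, r was -0.54 (permutation p = 0.0133). It was -0.75 (permutation p = 0.0058, unadjusted) within untagged libraries, 0.099 within tagged libraries and -0.29 (permutation p = 0.323, unadjusted) after removal of the treatment means. The part of library size and of the non-PT share in the relations among immune types was not tested.

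**Figure D4:**
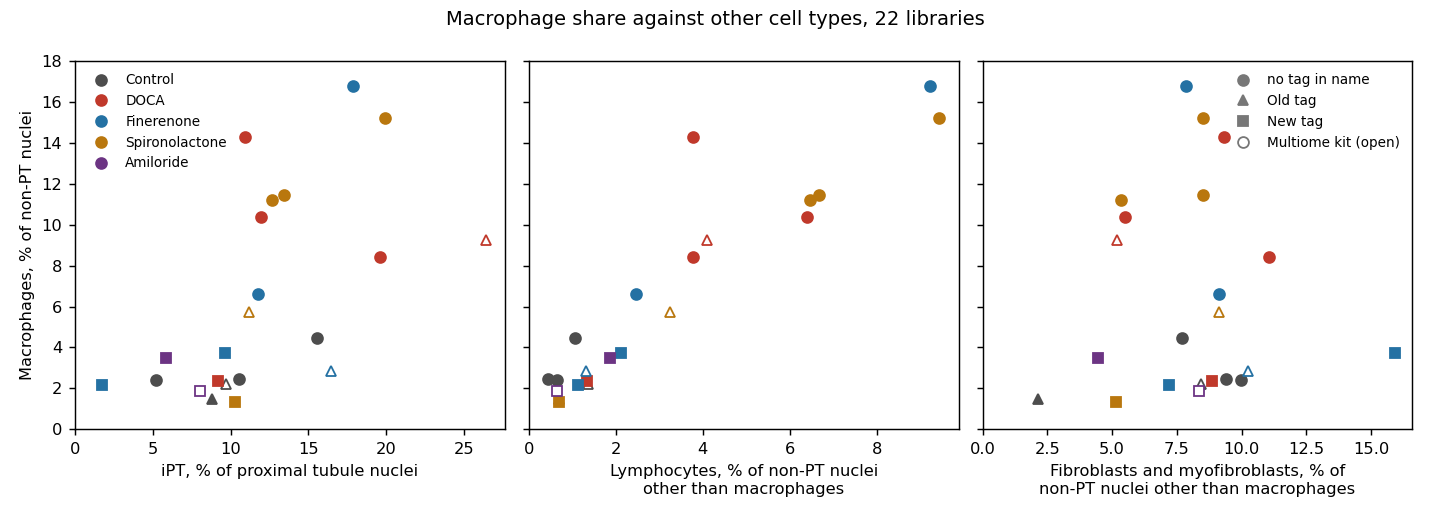
Macrophage share of non-PT nuclei against the iPT share of PT nuclei (left), and against the lymphocyte share (middle) and the fibroblast plus myofibroblast share (right) of the remaining non-PT nuclei. Each point is 1 of 22 libraries, colored by treatment, with shapes for the name tag. The points rise together in the middle panel (r = 0.93), rise with more scatter on the left (r = 0.58), and show no slope on the right (r = -0.0033).

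On the deposited UMAP, a two-dimensional map in which nuclei with similar transcripts lie close together, the macrophages formed a compact island. Of the 30 nearest nuclei of a macrophage, 96.3% were macrophages on average, although they are 2.04% of all nuclei, and 79.6% of macrophages had no other type among the 30. The map and the cell types were made from the same genes, so this is a description of the annotation and no test of it. The monocyte median lay 2.04 map units from the macrophage median and the lymphocyte median 2.92, closer than any tubule or stromal type, and UMAP distances between islands have no unit. Macrophages seldom bordered on either type, as 2.10% had a monocyte and 5.67% a lymphocyte among the 30 nearest nuclei.

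Most of the macrophages, 6164, had at least 15 macrophages among their 30 nearest nuclei, and the other 165 (2.61%) lay outside the island. The most common other type among the 30 nearest nuclei was PCT for 54 of these 165 (32.7%) and endothelial for 40 (24.2%). It was lymphocytes and monocytes for 22 each (13.3%), distal convoluted tubule for 12 (7.27%), and 1 of 5 other types for the remainder. Of all nuclei, 30.7% were PCT, 7.16% endothelial, 0.967% lymphocytes, 0.524% monocytes and 5.79% distal convoluted tubule. The PCT value was thus near its share of all nuclei. The authors removed doublets and ambient RNA before annotation, and whether these nuclei are doublets that were left was not tested. They made up 3.66% of macrophages in the DOCA group, 1.88% in the control group, 1.91% with finerenone, 2.24% with spironolactone and 4.76% with amiloride. Single libraries ranged from 0 in RK12.2, RK7.1.New and RK6.1.New to 7.06% in RK12.2.New.MO. Counting the 6164 macrophages of the island alone gave a DOCA minus control difference of 2.56 percentage points of all nuclei, close to the 2.66 of all macrophages (exact two-sided p = 0.0238, unadjusted).

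Treatments were largely mixed within the island. The median position of each library lay within 0.201 map units of the common median, where the interquartile ranges of the island were 0.371 and 0.498 units. Of a macrophage's macrophage neighbors, 28.3% came from the same treatment, against 26.5% if treatments were mixed at random, a ratio of 1.07. For libraries the share was 10.7% against 7.31%, a ratio of 1.46. Single libraries ranged from 0 in RK12.2, which holds 17 macrophages, to 2.57 in RK12.2.New.MO. New libraries spanned 1.35 (RK8.2.New) to 2.57, and the untagged RK4.1, with 35 macrophages, had 2.30. The positions were computed after the authors had corrected for batch, so they show what remained of the differences between libraries.

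**Figure D5:**
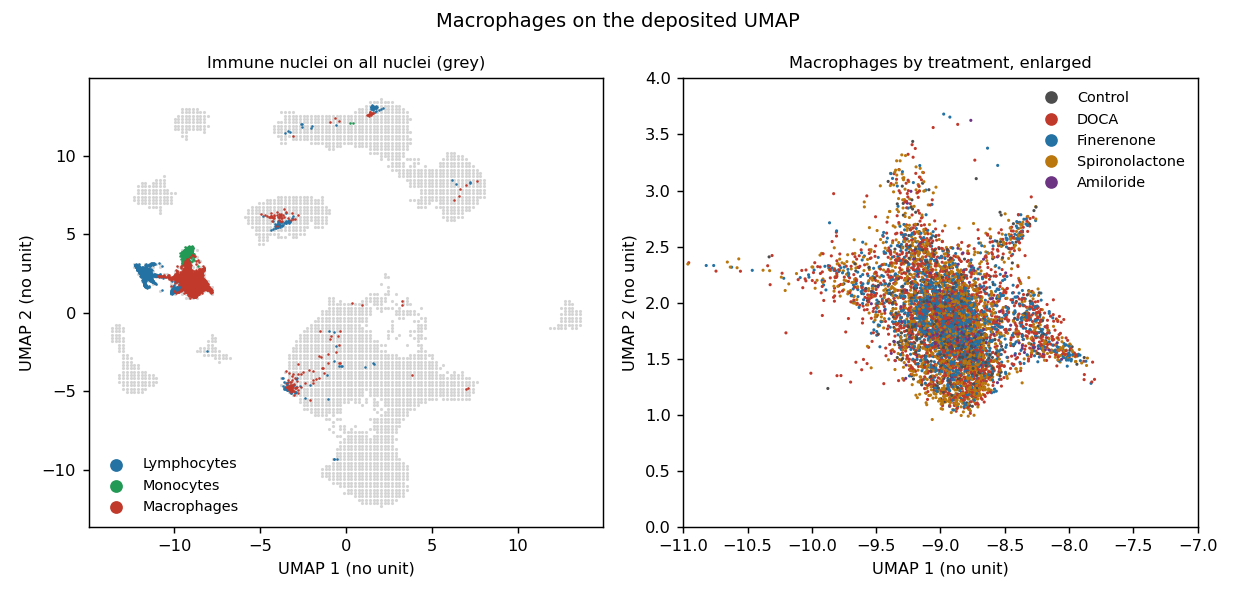
Left, all nuclei on the deposited UMAP as grey bins, with macrophages, monocytes and lymphocytes as colored points. Right, the macrophage island enlarged, with 6185 of the 6329 macrophages in the window, colored by treatment. Macrophages form 1 island next to monocytes and lymphocytes, a few lie among tubule and endothelial nuclei, and the treatments overlap in the island.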

How the data were processed

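Rat kidney nuclei were profiled by snRNA-Seq in 22 samples. Per the labels and the study's methods, the authors aligned reads to rn6 with Cell Ranger (3.0.2 listed for 11 samples and 6.0.1 for 11), with intronic reads counted, took out ambient RNA and doublets, dropped poor nuclei, corrected for batch with Harmony in Seurat (4.0.1) and named clusters from marker genes. The deposited values used here are names (library, treatment, cell type) and UMAP coordinates, which are a score without unit. The 310282 nuclei in the files are not the exact number the study's text gives.

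Macrophage nuclei were counted per library with Python 3.11.15, pandas 2.3.3, numpy 2.4.6 and scipy 1.17.1. Shares have exact (Clopper-Pearson) 95% intervals, which cover counting error only. Library means were compared by exact two-sided permutation tests of the group labels, adjusted by Benjamini-Hochberg over the types of a denominator, and intervals of differences were obtained by inverting these tests. The 0.05 threshold was used throughout. Ratios were tested as log2 values after 0.5 was added to both counts. Neighbors were the 30 nearest nuclei on the UMAP. The permutation test of shares was checked on simulated libraries given the spread between control libraries. The larger spread of the DOCA, finerenone and spironolactone groups was not simulated. A library gives 1 value, because nuclei of a library are not replicates. The members, lists and comparisons were chosen with earlier results of these data known, and no gene was named for its values.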

Additional observations from a re-analysis of the deposited data

Results flagged for a closer look

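Among 20 sets of values of a measure in a group of 5 libraries, 1 library stood apart by Dixon's test at the 95% level, which chance does in about 1 in 20 sets. It was the DOCA library RK7.1, with 4.43 macrophages per lymphocyte against 1.81 to 2.49 in the other 4 DOCA libraries. It holds 1774 nuclei, the fewest of its group, with 102 macrophages and 23 lymphocytes, and the exact interval of the ratio from counting error is 2.80 to 7.31. Without it the log2 difference between DOCA and control was -0.57, against -0.36 with it.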

How the results depend on the processing

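No paired analysis was possible because the library names carry none of the replicate numbers of the labels. No alternative made a macrophage share or ratio pass after adjustment except the interstitial denominator, which gave 13.9 percentage points for DOCA against control (exact permutation test, adjusted p = 0.0238 over fewer types). That difference did not pass without Multiome libraries (11.4), without libraries under 2000 nuclei (12.25), among tagged (12.3) or among untagged libraries (15), settings that were chosen after the data were seen and leave 4 or fewer libraries a group, and it was 11.9 to 17.4 with single libraries left out. DOCA stayed above control under all other alternatives, and leaving out single libraries gave 2.23 to 3.38 (without RK7.1 and RK2.2.New) of all nuclei, unadjusted exact p 0.0159 to 0.0476, and 5.01 to 7.99 of non-PT nuclei, unadjusted exact p 0.0159 to 0.0635. Without Multiome libraries these differences were 2.27 and 6.17, unadjusted exact p 0.0857 and 0.114. Finerenone minus DOCA turned to 0.14 (all nuclei) and 0.651 (non-PT) among untagged libraries, and leaving out single libraries gave -2.43 (without RK3.1) to -0.881 (without RK8.2.New) and -5.11 to -1.19. Spironolactone minus DOCA of all nuclei turned to 0.527 with medians, 0.393 without Multiome libraries, 0.599 among untagged libraries, 0.5004 without libraries over 30000 nuclei 0.00476 without those under 2000, and 0.0385 with RK6.1 and RK6.1.New counted as 1, and of non-PT nuclei to -2.29 among tagged libraries and -2.89 with pooled nuclei. Finerenone minus spironolactone of non-PT nuclei turned from -2.58 to 0.112 with pooled nuclei. For spironolactone minus DOCA, leaving out single libraries gave -0.948 to 0.5004 of all nuclei and -1.6 to 1.97 of non-PT nuclei. For the log2 ratios, leaving out RK7.1 moved spironolactone minus DOCA per lymphocyte from -0.35 to -0.14, and leaving out single libraries gave -0.477 to 0.0776 (monocytes, spironolactone minus DOCA), -0.27 to 0.0477 (lymphocytes, finerenone minus DOCA) and -0.352 to 0.247 (lymphocytes, amiloride minus DOCA). The rho of macrophages with iPT cells was 0.573 among untagged libraries, 0.445 among tagged libraries and 0.434 after removal of treatment means, and no longer passed. That with fibroblasts turned to -0.391 among untagged libraries and -0.057 after removal of treatment means. The cause of these changes was not tested. The share of macrophage neighbors was 96.1% to 96.5% under other settings. With 1 amiloride library left, the exact test takes it to vary like the others. No comparison among untagged libraries was made for amiloride, which has none, and no library fell under 20 nuclei for a ratio. The depth of RK12.2 and RK4.1, with 17 and 35 macrophages, limits their values.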
